A study of Homo sapiens with 5 samples.

Results

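Integrin chains and the core proteins of focal adhesions were examined as a group of 41 genes, 25 integrin chains and 16 adhesion proteins, in the human glioma line D54. They were taken from a list of 42 genes chosen by family and function. A gene entered where a row of the array table carried its symbol and no other, and its brightest row (mean of all arrays) was used. They were 41 of 18417 genes with such a row. ITGA1 was the listed gene left out, because its row is shared with PELO. That shared row read 8.01 and 8.51 in controls, against 7.93, 7.98 and 8.28 for shRNAs 1, 2 and 3.

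The controls were 2 arrays of D54 cells transfected with a control shRNA, described by the submitters as independent clones. The other 3 arrays came from D54 cells transfected with shRNA against TIP-1, each with a different shRNA and each hybridised to 1 array. TIP-1, encoded by TAX1BP3, is a small protein built around a PDZ domain, which holds on to the tails of partner proteins. All cells were trypsinised, seeded and grown overnight before RNA was taken. Values are the deposited log2 signals, and differences are TIP-1 shRNA minus control. Because the sources do not say that each array was a separate culture of 1 condition, p-values measure only the spread among these arrays, of clones on one side and of shRNAs on the other.

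Integrins are receptors made of 1 alpha and 1 beta chain that join the extracellular matrix to the actin cytoskeleton. The pair sets the ligand: some dimers bind collagen, some laminin, and some the RGD motif of fibronectin and vitronectin. Talin and kindlin bind the beta tail and activate the receptor, the ILK, PINCH and parvin complex and vinculin tie it to actin, and FAK, paxillin and p130Cas carry the signal. In glioma, integrins are known for their part in migration along matrix and in activating latent TGF-beta.

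The silenced gene was lower in each array labelled TIP-1 shRNA. The row of TAX1BP3, shared with a read-through transcript, read 12.05 and 12.10 in controls, against 9.81, 9.61 and 9.55 for shRNAs 1, 2 and 3 (log2 difference -2.42, SE 0.10, limma adjusted p = 0.0110). Leaving out control 1, control 2 or shRNA 2 ended the call (limma adjusted p = 0.386, 0.387 and 0.129). Of 12 glial and glioma markers, 5 were above the silent-gene reference defined next in every array, among them VIM, CD44 and SOX9, while S100B, SOX2, OLIG2, AQP4, FABP7, PTPRZ1 and ALDH1L1 were above it in no array. GFAP lay just above it, at 8.04 and 8.14 in controls, against 8.14, 8.06 and 7.86 for shRNAs 1, 2 and 3. The deposited arrays were not fully level: the upper quartile of all rows was 9.77 in each control and 9.79 to 9.83 with TIP-1 shRNA, and the lower quartile lay between 6.44 and 6.45 and between 6.35 and 6.42.

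The question of which dimers D54 can form was taken from transcripts, which do not show a receptor at the surface. The table holds no detection call, so each chain was set against genes taken as mostly silent in a glioma line. The reference was the 95th percentile of 341 olfactory receptor genes in the same array, which lay between 7.59 and 7.80. Probes differ from row to row, so the levels of different genes are not ranked. By this rule 11 of 25 chains were above the reference in all 5 arrays, where 11309 of all 18417 genes were. That number of genes is the background for each count against this reference, and most genes passed it. The alpha chains above it were ITGA2, ITGA3, ITGA4, ITGA5, ITGA6, ITGA11 and ITGAV. The beta chains were ITGB1, ITGB3, ITGB5 and ITGB8. Of 24 known dimers, 23 had both chains measured, and 10 had both above the reference. With keratin-associated protein genes as the reference, the 95th percentile lay between 9.79 and 10.08, near the upper quartile of all rows (9.77 to 9.83). By that stricter level 6 chains and 5 dimers were left, because ITGA2, ITGA4, ITGA11, ITGB3 and ITGB8 were not above it in all 5 arrays.

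**Figure D1:**
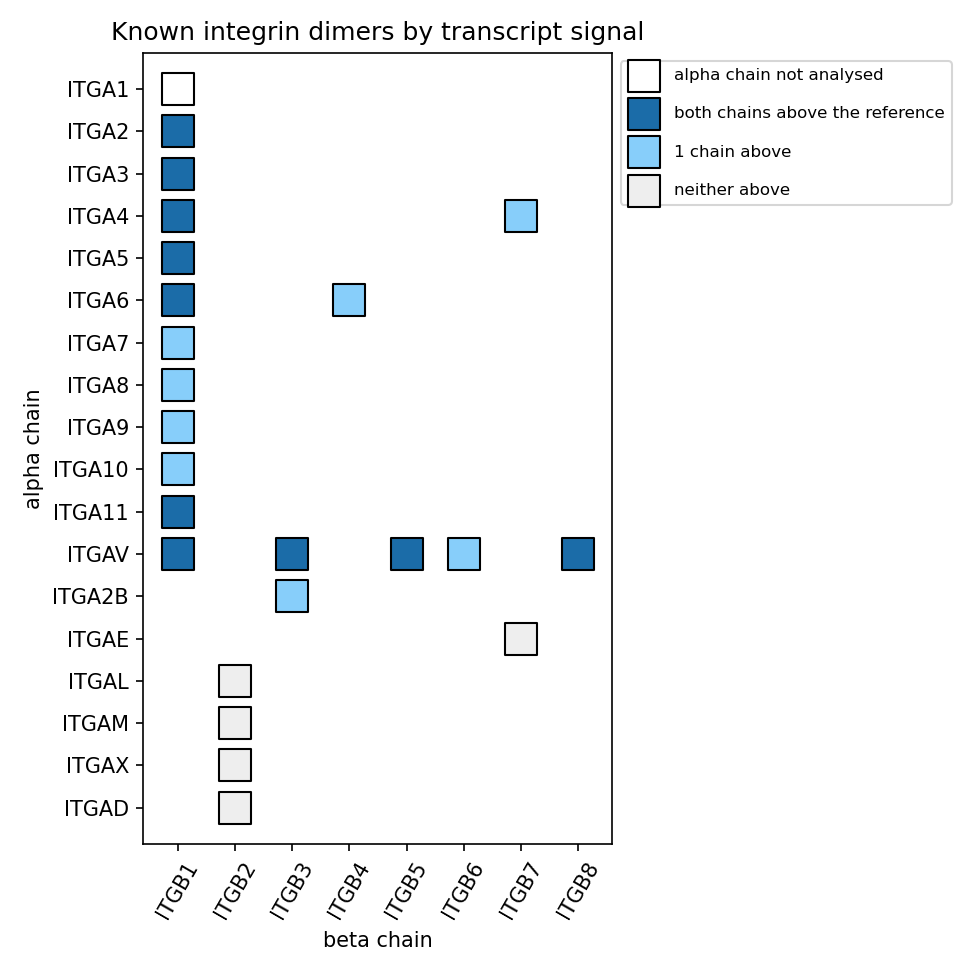
Each square is 1 of 24 known integrin dimers, placed by its alpha chain (vertical axis) and beta chain (horizontal axis) and shaded by whether the transcripts of its chains exceeded the olfactory receptor reference in all 5 arrays. Dark squares are the 10 dimers with both chains above it, 7 with ITGB1 and 4 with ITGAV, the pair of ITGAV and ITGB1 counting in each; the white square is the dimer of ITGA1, which was not analysed.

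Of the 10 dimers, 7 contained ITGB1, the most widely shared beta chain. ITGB1 read 12.38 and 12.31 in controls, against 12.32, 12.34 and 12.25 for shRNAs 1, 2 and 3. The groups overlapped, and the 95% interval of the difference ran from -0.24 to 0.16. The laminin receptor chain ITGA3 read 13.01 and 13.26 against 13.00, 13.05 and 13.20, also overlapping (-0.33 to 0.22). The fibronectin receptor chain ITGA5 read 12.71 and 12.66 against 12.83, 12.78 and 12.78, so that each TIP-1 shRNA array lay above both controls, by a small margin (log2 difference 0.11, SE 0.08, limma adjusted p = 0.757). ITGAV, the alpha chain shared by the RGD receptors, had the closest controls of these, at 11.41 and 11.41, and read 11.41, 11.45 and 11.46 with TIP-1 shRNA (interval -0.16 to 0.22).

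Dimers in the dark squares without ITGB1 all used ITGAV. Its partner ITGB5, the vitronectin receptor chain, read 11.50 and 11.48 in the controls, 11.42 and 11.47 with shRNAs 1 and 2, and 11.93 with shRNA 3. ITGB8, whose dimer activates latent TGF-beta, was nearer the reference, at 7.93 and 8.17 in the controls, 7.89 and 8.06 with shRNAs 1 and 2, and 8.86 with shRNA 3. Both chains were thus higher in the array of shRNA 3 than in the other 4 arrays. The limma differences over the group were 0.11 (SE 0.16) for ITGB5 and 0.22 (SE 0.29) for ITGB8, neither past the test, and without shRNA 3 they were -0.05 and -0.07. ITGB6, which also pairs with ITGAV, stayed below the reference in every array.

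The 14 chains not above the reference in all arrays included the 5 alpha chains listed as leukocyte chains and their partners ITGB2 and ITGB7. Of these 14, 8 were above it in no array: ITGA2B, ITGA7, ITGA8, ITGA9, ITGA10, ITGAL, ITGAM and ITGB6. The platelet chain ITGA2B ranged from 7.20 to 7.50 over the arrays, and ITGA8, which pairs with ITGB1 to bind nephronectin, from 5.99 to 6.24. The laminin receptor chain ITGB4, partner of ITGA6 in hemidesmosomes, was above the reference in 1 array, shRNA 3, at 7.89, while the controls read 7.58 and 7.53 and shRNAs 1 and 2 gave 7.63 and 7.57. ITGAX, a complement receptor chain, was above it in 4 arrays and missed it in shRNA 1, at 7.75. With the 90th percentile as the reference, ITGAD, ITGAX, ITGB2 and ITGB7 also counted as above, giving 15 chains and 13 dimers.

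**Figure D2:**
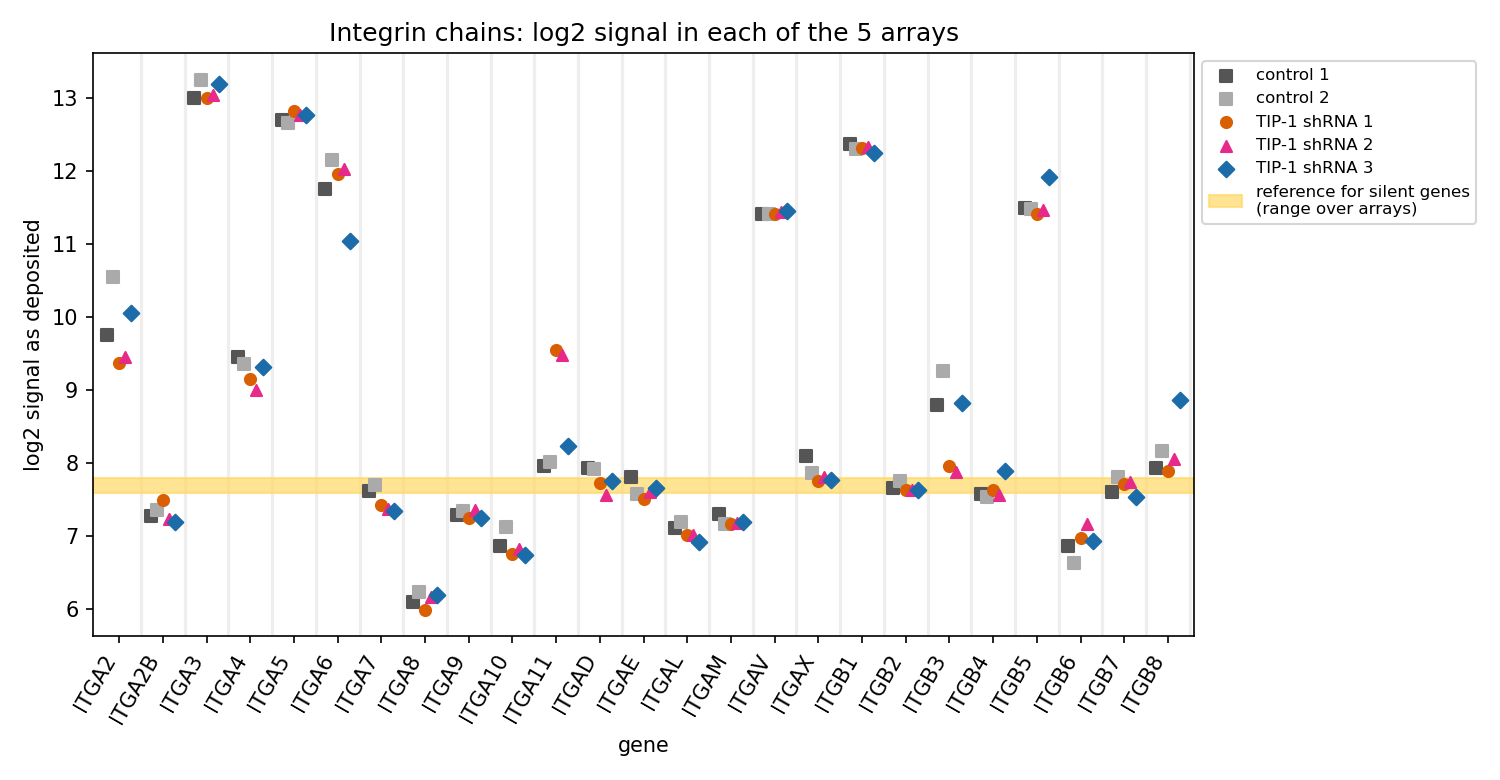
Log2 signal of the 25 integrin chains (horizontal axis) in each of the 5 arrays, with the band showing the range over arrays of the 95th percentile of olfactory receptor genes. Levels of different genes are not comparable; within a gene, ITGA11 stands apart in shRNAs 1 and 2 at 9.55 and 9.49, ITGB3 is lowest there at 7.96 and 7.88, and ITGA6 is lowest in shRNA 3 at 11.05.

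The comparison of TIP-1 shRNA with control called none of the 41 members (limma, Benjamini-Hochberg adjustment over all 33297 rows, adjusted p under 0.05), where 0.00300% of all rows were called. The smallest adjusted p among members was 0.707. At an unadjusted p under 0.05 there were 5 members, ITGA11 and ITGB6 on the higher side and ITGA7, ITGB3 and ITGAD on the lower, 12.2% of members beside 6.02% of all genes. That count was 1 without control 2 (3.15% of genes), 1 without shRNA 1 (5.94%) and 0 without shRNA 2 (2.76%), and with each array centred on its median it was 3 (7.19% of genes, close to the members' share). The median log2 difference was -0.046 over members and -0.009 over all genes, with 12 members higher and 29 lower. With median centring the members' median was 0.016, where 35.1% of all genes had a lower mean, against 52.4% as deposited. With quantile normalization the members' median was -0.042, so of these scalings only median centring changed its sign.

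The groups did not overlap for 12 of 41 members, 29.3%, beside 26.5% of all genes, so the members' share was near the background. All 3 TIP-1 shRNA arrays were above both controls for 3 members, ITGA5, ITGA11 and ITGB6, where 12.5% of genes were. They were below both for 9, namely ITGA4, ITGA7, ITGA10, ITGAD, ITGAL, ITGAX, ITGB2, TLN1 and ZYX, where 14.1% of genes were. Of these 9, 6 are integrin chains not above the silent-gene reference in all arrays. With median centring 10 members were separated, 7 above and 3 below (24.4%, beside 29.3% of genes). With quantile normalization it was 11, of which 4 were above and 7 below (26.8%, beside 24.5% of genes). The lean to the lower side stayed with quantile normalization, where 11.4% of genes were below both controls. It turned with median centring, where 7.37% of genes were. Among the 26 members with rows brighter than the median row, 2 were above both controls and 3 below (19.2%, beside 26.0% of genes). Leaving out an array makes separation easier for any gene: the count was 25 without control 1 (61.0%, beside 57.9% of genes) and 19 without shRNA 3 (46.3%, beside 43.0%). It was 17 without control 2 (41.5%, beside 51.0% of genes), 16 without shRNA 1 (39.0%, beside 41.7%) and 16 without shRNA 2 (39.0%, beside 33.6%).

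Each TIP-1 shRNA was then set against the control mean. These differences share the controls and rest on 1 array each, so they carry no test. At least 2-fold from the control mean were 2 members with shRNA 1, where 0.418% of genes were, 2 with shRNA 2 (0.434% of genes) and 0 with shRNA 3 (0.695% of genes). The members were ITGA11 and ITGB3 with shRNA 1 as with shRNA 2. Against control 1 alone, ITGA11 was left in each. Against control 2 alone, ITGA2 was added with shRNAs 1 and 2, and ITGA6 was at least 2-fold lower with shRNA 3. The shares of all genes against a single control are not given here, so these changes have no background beside them.

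**Figure D3:**
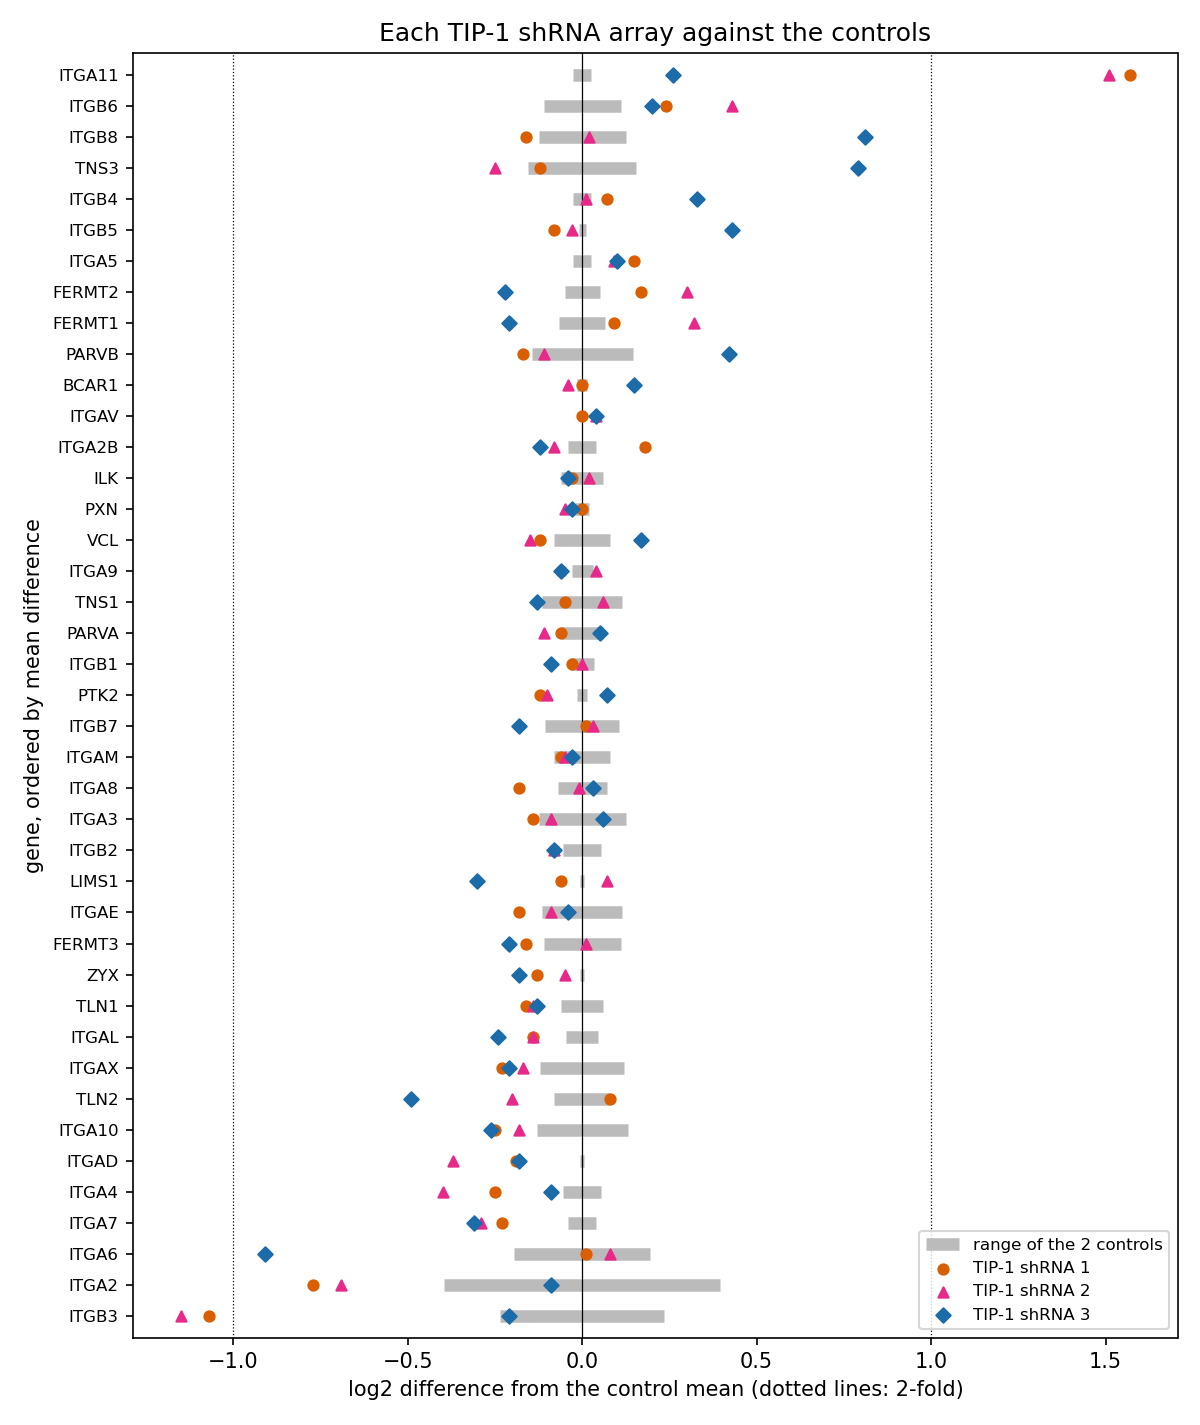
Log2 difference of each TIP-1 shRNA array from the control mean (horizontal axis) for the 41 members, ordered by the mean over the 3 arrays; grey bars span the controls and dotted lines mark 2-fold. The points of shRNAs 1 and 2 lie near each other for most genes and pass 2-fold for ITGA11 and ITGB3, while shRNA 3 stands apart for ITGA6, ITGB8, TNS3, ITGB5 and PARVB.

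Across the 41 members, shRNAs 1 and 2 were the closest pair of arrays, with an SD of their differences of 0.113 log2 units and no gene differing by more than 0.28. The controls differed from each other with an SD of 0.210, and at most by 0.79, for ITGA2. shRNA 3 differed from shRNAs 1 and 2 with SDs of 0.425 and 0.431 over the members. Over all rows the same pairs gave 0.191 for shRNAs 1 and 2, 0.252 for the controls, and 0.305 and 0.292 for shRNA 3. Among all pairs of arrays, shRNAs 1 and 2 were closest both over the members and over all rows; the widest pair was shRNAs 2 and 3 over the members and control 2 and shRNA 3 (0.315) over all rows. Whether this reflects the shRNA sequence, the clone or the handling of the array was not tested.

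ITGA11 encodes the alpha chain that pairs with ITGB1 to bind fibrillar collagen. It read 7.96 and 8.01 in the controls, 9.55 and 9.49 with shRNAs 1 and 2, and 8.24 with shRNA 3. All TIP-1 shRNA arrays were above both controls, but shRNA 3 by far less than the others. Against a control mean of 7.98 ± 0.04 (SD, n = 2), the signal was 2.96-fold higher with shRNA 1, 2.85-fold with shRNA 2 and 1.20-fold with shRNA 3. The difference over the group was 1.11 (SE 0.39, 95% interval 0.16 to 2.07, limma adjusted p = 0.707). Without shRNA 3, the TIP-1 shRNA array nearest the controls, it was 1.54 and passed (limma adjusted p = 0.0415). It was 0.887 without shRNA 1 and 0.915 without shRNA 2, and passed in neither. With control 1 or control 2 left out, the difference was 1.09 and 1.14. In the controls ITGA11 was close to the silent-gene reference, 7.76 and 7.80 there, and with the 99th percentile in its place (8.44 and 8.23) it was not above it.

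ITGB3, the beta chain of the vitronectin and osteopontin receptor formed with ITGAV, went the other way with the same shRNAs. It read 8.80 and 9.26 in the controls, 7.96 and 7.88 with shRNAs 1 and 2, and 8.82 with shRNA 3. The array of shRNA 3 lay between the controls, so the groups overlapped. Below the control mean of 9.03 ± 0.33 (SD, n = 2), the signal was 2.10-fold lower with shRNA 1 and 2.21-fold with shRNA 2. The difference over the group was -0.81 (SE 0.31, 95% interval -1.56 to -0.06, limma adjusted p = 0.707). It was -1.11 without shRNA 3 and -0.575 without control 2, and passed in neither (limma adjusted p = 0.276 and 0.980). With shRNAs 1 and 2 it was no longer above the 99th percentile of olfactory receptor genes, 8.20 and 8.10 in those arrays.

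ITGA2, the other analysed collagen-binding alpha chain above the reference, read 9.76 and 10.55 in the controls, 9.38 and 9.46 with shRNAs 1 and 2, and 10.06 with shRNA 3. shRNAs 1 and 2 were below both controls, and shRNA 3 lay between them. The controls differed by 0.79, the widest gap among members, and the difference of -0.52 (SE 0.29, 95% interval -1.23 to 0.19) was -0.12 without control 2. ITGA10, a cartilage collagen receptor chain, was below the silent-gene reference in every array (6.74 to 7.13), so no direction is read from it.

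The start regions of ITGA11 and ITGA2 are shown because these were the analysed collagen-binding alpha chains above the reference. The row that ITGA1, also a collagen-binding chain, shares with PELO was above it in all 5 arrays. That signal cannot be assigned to either gene. Each runs from 250 bases before to 50 after the RefSeq start site (build GRCh38.p14), 5′ to 3′ on the gene's strand. ITGA11 lies at chr15:68432114-68432413 on the minus strand and ITGA2 at chr5:52989102-52989401 on the plus strand. Capitals mark matches on either strand to GGGCGG, a core of the SP1 site.
ITGA11: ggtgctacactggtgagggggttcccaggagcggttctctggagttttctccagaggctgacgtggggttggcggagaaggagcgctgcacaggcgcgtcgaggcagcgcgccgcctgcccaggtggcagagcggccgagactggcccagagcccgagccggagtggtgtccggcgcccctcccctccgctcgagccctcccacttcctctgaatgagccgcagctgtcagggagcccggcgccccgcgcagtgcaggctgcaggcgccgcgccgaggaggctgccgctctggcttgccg
ITGA2: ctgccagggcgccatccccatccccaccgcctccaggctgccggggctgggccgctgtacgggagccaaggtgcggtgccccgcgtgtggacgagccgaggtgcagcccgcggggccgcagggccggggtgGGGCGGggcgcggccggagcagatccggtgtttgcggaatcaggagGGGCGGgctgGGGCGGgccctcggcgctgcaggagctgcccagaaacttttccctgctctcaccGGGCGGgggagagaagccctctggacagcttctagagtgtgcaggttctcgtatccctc
The ITGA2 window held 4 matches to GGGCGG, beginning at bases -119, -73, -63 and -9 from the start site, and the ITGA11 window held 0. Of 35116 promoters of the same length, 45.0% held at least 1. Neither window held the AP-1 motif TGANTCA (in 7.7% of promoters), CCAAT (34.6%) or TATAAA (11.5%). GC content was alike, 72.0% for ITGA11 and 72.7% for ITGA2. The arrays bear on transcript level and not on these windows.

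ITGA6, the laminin receptor chain that pairs with ITGB1 or ITGB4, stood apart in the array of shRNA 3. It read 11.76 and 12.16 in the controls, 11.97 and 12.04 with shRNAs 1 and 2, and 11.05 with shRNA 3, a signal 1.88-fold below the control mean in that array. The group difference of -0.27 (SE 0.32) turned to 0.05 without shRNA 3. TNS3, a tensin that links the beta tail to actin, was higher in the same array: 10.55 and 10.24 in the controls, 10.27 and 10.15 with shRNAs 1 and 2, and 11.19 with shRNA 3. PARVB, a parvin of the ILK complex, read 8.44 and 8.73, then 8.41 and 8.47, then 9.01. ITGB5 and ITGB8, described above, were likewise highest with shRNA 3. TLN2 and LIMS1 were lowest there, -0.49 and -0.30 from the control mean.

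The other chains with an unadjusted p under 0.05 had small differences. ITGA7, a laminin receptor chain of muscle, read 7.62 and 7.70 in controls, against 7.43, 7.37 and 7.35 under TIP-1 shRNA (log2 difference -0.27, SE 0.08, limma adjusted p = 0.707). ITGAD, a leukocyte chain, read 7.94 and 7.92 against 7.73, 7.56 and 7.75 (-0.24, SE 0.09). ITGB6, an epithelial chain that activates latent TGF-beta, read 6.86 and 6.63 against 6.98, 7.17 and 6.94 (0.29, SE 0.12), and its difference was 0.18 without control 2. In each the groups did not overlap, yet each lay at or below the silent-gene reference in at least 2 arrays. ITGA4, the chain of the VCAM-1 and fibronectin receptor, was above the reference and read 9.46 and 9.36 against 9.16, 9.01 and 9.32 (-0.25, SE 0.11, limma adjusted p = 0.707).

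The 5 leukocyte alpha chains had a lower mean with TIP-1 shRNA in the values as deposited, from -0.05 for ITGAM to -0.24 for ITGAD, where 52.4% of all genes had. ITGAM was at 0.011 with median centring and 0.018 with quantile normalization, and without control 1 ITGAM was at 0.029 and ITGAE at 0.010, so their direction was not stable. The groups did not overlap for ITGAD, ITGAL and ITGAX, beside 14.1% of genes below both controls, and under either scaling ITGAX overlapped. None passed the test, and none was above the reference in all arrays. Of 11 leukocyte markers measured, CSF1R, SPI1 and CORO1A were above the reference in every array, 6 were above it in none, and PTPRC and LAPTM5 were above it in 3 arrays each. CD53 was below both controls in all TIP-1 shRNA arrays (-0.20, SE 0.11), and LAPTM5 (0.52, SE 0.14) and CSF1R (0.10, SE 0.08) were above both. The mean log2 signal of the list was 7.56 and 7.43 in controls, against 7.62, 7.58 and 7.33 for shRNAs 1, 2 and 3. PTPRC, which encodes the pan-leukocyte antigen CD45, read 8.65 and 7.32 in controls, against 8.39, 7.75 and 6.84. All 5 arrays came from the D54 line, so these markers are not read as a share of leukocytes. What set their signal was not tested. For platelet, endothelial and epithelial markers, 1 of 4, 1 of 7 and 2 of 6 were above the reference in all arrays.

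Of 16 focal adhesion proteins, 15 were above the reference in all 5 arrays, where 11309 of 18417 genes were. The exception was TNS1, and none of the 16 had an unadjusted p under 0.05. Their differences ran from -0.21 to 0.14, and those of the integrin chains from -0.81 to 1.11. Talin 1, TLN1, which couples the beta tail to actin, read 11.06 and 11.18 in controls, against 10.95, 10.97 and 10.98 under TIP-1 shRNA, all below both controls (log2 difference -0.15, SE 0.08, limma adjusted p = 0.719). Talin 2, TLN2, was spread wider, at 9.00 and 9.16 against 9.16, 8.88 and 8.60. The kindlins FERMT1 and FERMT2, which activate integrins beside talin, were each above both controls with shRNAs 1 and 2 and below both with shRNA 3. FERMT2 read 10.83 and 10.73 in controls, against 10.95, 11.07 and 10.56. FERMT3, the kindlin of blood cells, ranged from 8.22 to 8.54 over the arrays.

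**Figure D4:**
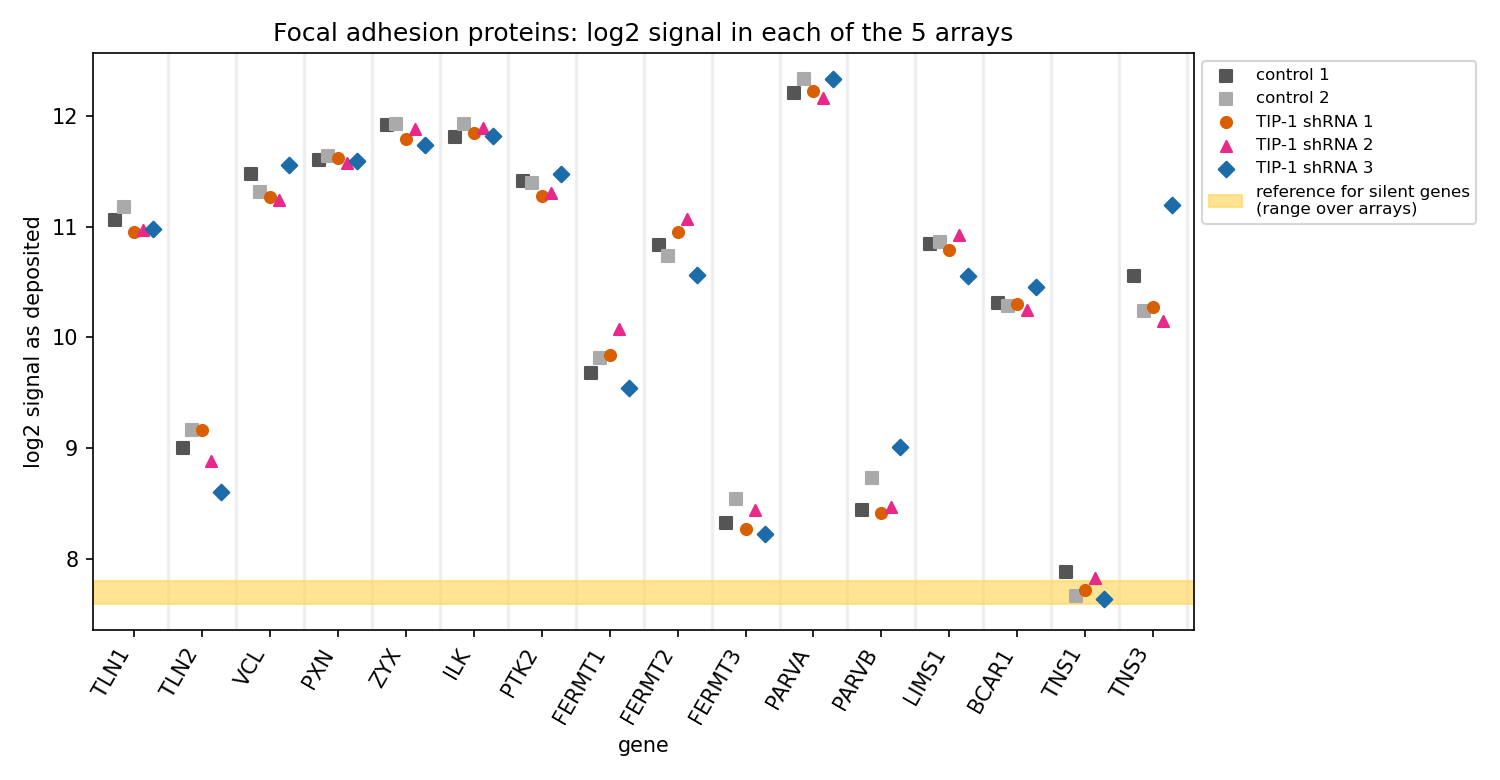
Log2 signal of the 16 focal adhesion proteins (horizontal axis) in each of the 5 arrays, drawn as for the integrin chains, with the same reference band. The points of most genes lie close together, and TNS3 and PARVB are highest in shRNA 3, at 11.19 and 9.01.

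Among the proteins that link to actin, zyxin, ZYX, read 11.92 and 11.93 in controls, against 11.79, 11.88 and 11.74 under TIP-1 shRNA, below both controls in all 3 arrays (-0.12, SE 0.08). Vinculin, VCL, which reinforces talin's hold on actin, overlapped between groups, at 11.47 and 11.31 against 11.27, 11.24 and 11.56. In the ILK complex, ILK (95% interval -0.22 to 0.19), the PINCH protein LIMS1 (-0.40 to 0.21), PARVA (-0.27 to 0.19) and PARVB (-0.44 to 0.54) all overlapped between groups. So did the signalling members: FAK, PTK2 (-0.28 to 0.18), paxillin, PXN (-0.22 to 0.16), and p130Cas, BCAR1 (-0.19 to 0.27). A dimmer second row of PXN gave -0.20 (SE 0.10), with all TIP-1 shRNA arrays below both controls, so the rows of that gene disagreed.

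Other genes of integrin adhesion were taken from textbook lists of ligands, cytoplasmic adaptors and membrane partners. None of the genes on them passed the test. Of 41 ligands, 1 was higher and 4 lower at an unadjusted p under 0.05, 12.2% beside 6.02% of all genes, and 10 did not overlap between groups, 24.4% beside 26.5%. The 4 were FN1 (-1.67, SE 0.46), osteopontin SPP1 (-1.32, SE 0.36), tenascin TNC (-0.28, SE 0.09) and the laminin chain LAMB3 (-0.90, SE 0.28), and the higher was MFGE8, a ligand of the ITGAV dimers (0.35, SE 0.12). The controls of FN1 read 9.16 and 10.60, and its difference was -0.95 without control 2. TNC was above the silent-gene reference in 1 array. Next on the higher side came the collagen chain COL5A2 (0.34, SE 0.16) and ICAM3 (0.20, SE 0.11). The count of 5 was 4 with quantile normalization (5.35% of all genes) and 4 without shRNA 1 (5.94%). It was 5 without shRNA 2 (2.76%) and 8 without shRNA 3 (8.12%). With control 2 left out, SPP1 was at -1.16, TNC at -0.35, LAMB3 at -0.82 and MFGE8 at 0.25. A count from that fit is not set beside these, because a lone control gives no spread of its own.

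Ligands known to bind ITGAV dimers through RGD were mixed. SPP1 differed from the control mean by -1.92, -1.45 and -0.60 and FN1 by -2.17, -1.68 and -1.15 in shRNAs 1, 2 and 3. MFGE8 lay above both controls in all 3 arrays, and FBN1 (0.29, SE 0.42), EDIL3 (0.15, SE 0.14), THBS1 (-0.20, SE 0.27) and vitronectin, VTN (-0.03, SE 0.10), overlapped between groups. VTN, a ligand of the ITGB3 and ITGB5 dimers, read 8.07 and 7.89 against 8.04, 7.89 and 7.92. LAMB3, part of a laminin bound by the dimers of ITGA3 and ITGA6, read 11.53 and 11.69 in controls, against 10.32, 10.50 and 11.29. The collagen chain COL1A1, of a ligand of ITGA11 and ITGA2, overlapped between groups and read 9.03 and 8.91 against 9.05, 9.00 and 8.84. ICAM1, a ligand of the leukocyte chains, was highest with shRNA 3, at 11.00, while the controls read 9.27 and 10.05 and shRNAs 1 and 2 gave 9.93 and 9.82.

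Of 47 adaptors and signalling proteins outside the core, 5 were higher and 1 lower at an unadjusted p under 0.05, 12.8% beside 6.02% of all genes, and 14 did not overlap between groups, 29.8% beside 26.5%. The smallest p belonged to PTK2B, the FAK relative PYK2, which read 8.79 and 8.76 in controls, against 9.08, 9.06 and 9.16 under TIP-1 shRNA (0.33, SE 0.08, limma adjusted p = 0.707). Its difference from the control mean was alike with all 3 shRNAs, at 0.31, 0.29 and 0.39. The others were TES (0.28, SE 0.10), the Rac exchange factor DOCK1 (0.21, SE 0.08), RAP1A (0.26, SE 0.10), TNS2 (0.19, SE 0.08) and the actin regulator ENAH, which was lower (-0.33, SE 0.13). TES was above the silent-gene reference in no array, and without control 1 its difference was 0.16 and that of ENAH -0.19. The paxillin relative LPXN (-0.34, SE 0.15) and LPP (-0.20, SE 0.09) came next on the lower side. The count of 6 was 3 with quantile normalization (5.35% of all genes), 2 without shRNA 1 (5.94%) and 1 without shRNA 2 (2.76%). Without shRNA 3 it was 8 (8.12%).

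Of 17 membrane partners, none had an unadjusted p under 0.05, and 4 did not overlap between groups, 23.5% beside 26.5% of all genes. With shRNA 3 left out there were 2, where 8.12% of all genes had an unadjusted p under 0.05. The smallest p on the lower side were those of THY1 (-0.17, SE 0.08), EMP2 (-0.17, SE 0.11) and the urokinase receptor PLAUR (-0.20, SE 0.19). On the higher side they were those of LGALS3 (0.26, SE 0.13), the tetraspanin CD151, a partner of ITGA3 (0.07, SE 0.08), and SLC3A2 (0.07, SE 0.09). The median log2 difference was -0.009 for ligands, -0.048 for adaptors and -0.061 for membrane partners, beside -0.009 for all genes.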

How the data were processed

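RNA from 5 D54 samples was hybridised to Affymetrix whole-transcript arrays. The deposited values are log2 signals, 1 per transcript cluster, which the authors made with the Affymetrix Exon Array Computational Tool, per the series' design text. The version of that tool is, like the normalization and genome build, not given in the sources used here. Submitters speak of an exon array, while the row identifiers are those of the Human Gene annotation. No depth applies, and the number of arrays limits the precision.

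Values were used as deposited. A two-sided limma fit (lmFit, eBayes; version 3.58.1 under R 4.3.3) covered all 33297 rows (Benjamini-Hochberg adjustment, threshold 0.05). The test was checked on simulated data. An exact permutation test of 2 against 3 arrays cannot go below 0.1 and was not used. Symbols come from GEO's platform annotation; of 19460 rows with 1 symbol, 19429 were looked up in RefSeq and 0 changed.

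The members, lists and tests were chosen with earlier results of these data known. Named were members with an unadjusted p under 0.05, a difference of at least 0.5, a 2-fold difference in any array, controls at least 1 log2 unit apart, or a place in a dimer above the reference, and, of each adhesion list, the 3 genes with the smallest p per direction and ligands of the chains described; others named to complete a role, list or ligand were chosen after their values were seen. Alternatives were quantile normalization, median centring, bright rows, a trended robust prior, leaving out each array, a replicate block, averaged rows and other references.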

Additional observations from a re-analysis of the deposited data

How the results depend on the processing

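ITGA11 was the only member called under any alternative run. It passed without shRNA 3 and with the replicate block (log2 difference 1.54, limma adjusted p = 0.0287). In the block fit shRNA 3, lacking a control of its number, does not enter the difference. The share of all rows called in those runs is not given here, so these calls have no background beside them. Deviations from the group mean in same-numbered arrays correlated at r = 0.049 and -0.053. The 2 controls deviate from their mean in mirror image, and shRNAs 1 and 2 were alike. The values are thus nearly 1 comparison and cannot decide whether the arrays were paired. Leaving out 1 array gave 0 to 1 called members, 0 to 7 at an unadjusted p under 0.05, 16 to 25 with separated groups, and medians of -0.077 to -0.015. TAX1BP3 then lay between -2.495 and -2.368. Of all genes, 2.76% to 8.12% had an unadjusted p under 0.05 with 1 array left out. The lists gave 1 to 8 ligands, 1 to 8 adaptors and 0 to 2 membrane partners at an unadjusted p under 0.05. Members at least 2-fold from the controls numbered 1 to 3, 1 to 3 and 0 to 1 in shRNAs 1, 2 and 3 with 1 control left out, with no share of all genes given. A fit on a lone control takes its spread from the shRNA arrays. The median was 0.016 with median centring and -0.070 with the replicate block. With bright rows only, which kept 26 members, 5 had separated groups (19.2%, beside 26.0% of genes) and 2 an unadjusted p under 0.05 (6.51% of genes); with median centring 3 had (7.19% of genes). Quantile normalization left 3 adaptors (5.35% of genes). With the keratin-associated reference 6 chains and 5 dimers were above. Among the values of named members under the alternatives, 140 kept direction and side of the threshold, 2 became calls and 9 changed sign. The sign changes were in ITGA3 (0.007 with median centring, -0.177 to 0.069 leaving out 1 array), ITGB1 (0.023 with median centring), ITGA6 (0.046 with the replicate block, -0.471 to 0.046 leaving out 1 array), ITGB5 (-0.051, and -0.051 to 0.204) and ITGB8 (-0.070, and -0.070 to 0.413). The cause of the other changes was not tested. Signal over background was not given, so dim rows limit what can be said of chains near the reference.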
